A study of Homo sapiens with 6 samples.

Results

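Chemokines are small secreted proteins that attract leukocytes, and they are read by receptors with a heptahelical fold that signal through inhibitory G proteins. The genes described here were 7 chemokine ligands (CXCL10, CXCL11, CXCL2, CXCL16, CCL2, CCL3 and CCL5) and 3 receptors (CXCR4, CCR1 and CCR2), found by symbol in each table, and all 10 were among the 23368 symbols counted. They were chosen with their values in these libraries already known, among them a lower CXCL10 beside higher interferon genes. Their levels and fold changes are therefore given as a description, without a p-value.

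RNA sequencing was carried out on NB4 cells, a human cell line derived from an acute promyelocytic leukemia, a disease of granulocyte precursors arrested at the promyelocyte stage. Cells were grown in RPMI medium with fetal bovine serum and were either not treated or exposed for 24 h to 10 µM maltonis, a hydroxypyrone derived from maltol and dissolved in water. Each group had 3 libraries of total RNA, and a single line stands for the disease. The study's methods call the 3 libraries of a group biological replicates, while the labels give a replicate number only and do not say how the cultures were separated.

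In leukocytes, inflammatory ligands such as CCL3, CCL5, CXCL2 and CXCL10 are switched on by NF-κB, by AP-1 and, for CXCL10 and CXCL11, by interferons. CXCL10 and CXCL11, together with CXCL9, attract T cells through CXCR3, while CCL3 and CCL5 act on CCR1, and CCL2 acts on CCR2. CXCR4 is the receptor of the stromal ligand CXCL12 and holds hematopoietic and leukemic cells in the bone marrow.

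Libraries held between 18492154 and 38205483 counts, and 3 counts corresponded to 0.0828 to 0.160 CPM, the counts scaled to one library size by the trimmed mean of M-values (TMM). Intervals and floors given here cover counting error only. The promyelocytic label was checked with MPO, CD33, ANPEP, PRTN3, CTSG, AZU1, CEBPE and CSF3R, which all had enough counts to be tested. Of these, 3 were called higher and 4 lower, beside 31.9% and 32.1% of all genes, with a median log2 fold change of −0.07. Their summed level of 14357 to 16866 CPM without treatment and 8928 to 9464 CPM with maltonis was mostly MPO. With maltonis, CTSG, AZU1 and CSF3R were higher, and MPO, CD33, ANPEP and CEBPE were lower. Of 9 markers of monocytes, macrophages and mature neutrophils, 5 stayed under 3 counts in every library. The list summed to 6.29 to 8.67 against 5.01 to 5.32 CPM, mostly as VSIG4, which was lower with maltonis (mean 6.70 against 3.59 CPM). CD14, C1QA and MARCO had higher means with maltonis, at low counts. The 8 lymphoid markers summed to 51.6 to 55.6 against 19.9 to 20.3 CPM, mostly as CD3D. MS4A1 was at 0 in all libraries and CD3E near 0. Of the 5 lymphoid markers tested, 4 were called lower and 1 (GNLY) higher, beside 32.1% and 31.9% of all genes. GNLY had 1, 3 and 1 counts without treatment and 9, 21 and 13 with maltonis. It passed the filter on low counts only through the maltonis libraries. The 6 markers of fibroblasts, endothelium and epithelium summed to 16.6 to 18.4 against 10.5 to 13.1 CPM, mostly as EPCAM, with CDH5 at 0. COL1A1, COL1A2 and KRT19 had most or all of their few counts (4 of 4, 11 of 15 and 2 of 2) in maltonis replicate 1. The part of these shifts in the chemokine values was not tested, and in bulk RNA fewer cells of a type cannot be told apart from less RNA per cell.

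Promoter sequences are shown first because CXCL10 and CXCL11 have both interferon and NF-κB inputs, while CCL3, whose level differed most between the groups among the 10 genes, and CXCL8, the second most abundant ligand, serve for contrast. The 250 bases upstream of the RefSeq start (GRCh38.p14) were found for 7 of the 10 genes and for CXCL8. CXCL16, CCL2 and CCL5 had no entry. Both strands were searched for the interferon-stimulated response element GAAANNGAAA, the gamma-activated site TTCNNNGAA, a κB site in a first form GGGANNNNCC and a second form GGAANTTCC, and the AP-1 site TGANTCA. Matches are in capitals, each sequence runs 5′ to 3′ along its gene, and the windows are chr4:76023498-76023747 on the minus strand for CXCL10, chr4:76036071-76036320 on the minus strand for CXCL11, chr17:36090144-36090393 on the minus strand for CCL3 and chr4:73740319-73740568 on the plus strand for CXCL8.
CXCL10: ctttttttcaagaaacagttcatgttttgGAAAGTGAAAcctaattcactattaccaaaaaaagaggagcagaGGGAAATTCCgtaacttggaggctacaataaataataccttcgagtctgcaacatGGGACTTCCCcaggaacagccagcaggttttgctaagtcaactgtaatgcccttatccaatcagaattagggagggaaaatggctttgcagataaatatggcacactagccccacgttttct
CXCL11: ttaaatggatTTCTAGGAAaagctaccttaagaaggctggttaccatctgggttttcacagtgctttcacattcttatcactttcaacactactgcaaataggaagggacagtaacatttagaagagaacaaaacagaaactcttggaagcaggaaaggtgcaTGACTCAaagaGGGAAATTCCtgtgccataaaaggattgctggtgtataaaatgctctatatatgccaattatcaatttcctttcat
CCL3: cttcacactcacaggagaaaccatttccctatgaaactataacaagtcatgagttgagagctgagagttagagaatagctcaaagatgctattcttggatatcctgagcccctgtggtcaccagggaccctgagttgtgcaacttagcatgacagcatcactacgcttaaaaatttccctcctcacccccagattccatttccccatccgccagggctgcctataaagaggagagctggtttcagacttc
CXCL8: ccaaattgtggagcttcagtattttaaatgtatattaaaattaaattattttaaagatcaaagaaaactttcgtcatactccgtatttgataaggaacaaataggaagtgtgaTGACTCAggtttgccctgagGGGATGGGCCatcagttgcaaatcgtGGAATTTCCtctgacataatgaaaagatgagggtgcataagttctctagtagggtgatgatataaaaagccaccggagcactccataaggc

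The CXCL10 window held the interferon-stimulated response element 221 to 212 bases before the start, a motif present in 3.02% of 35116 promoters of the same length, and it was the 1 window of the 7 with this match. κB matches lay 177 to 168 and 122 to 113 bases before the CXCL10 start, where both forms overlap at the more distal one. The CXCL11 window had a κB match of both overlapping forms at 76 to 67, an AP-1 match at 87 to 81 and a gamma-activated site at 240 to 232 bases before its start. CXCL2 also carried both κB forms, overlapping each other. The first form occurred in 22.6% and the second in 0.826% of all promoters, and each was found in 3 of the 7 windows (CXCL10, CXCL11 and CXCL2). AP-1 letters occurred in 6.57% of all promoters and in the windows of CXCL11 and CCR2, and the gamma-activated site, also in 6.57% of all promoters, was found in the windows of CXCL11 and CCR1. CXCL8 had an AP-1 match at 137 to 131 and κB matches at 117 to 108 and 91 to 83 bases before its start. None of these letters was found in the windows of CCL3 and CXCR4, which says nothing about sites elsewhere. A match describes letters only and is not evidence that a factor bound there. The motif forms were settled after promoters had been seen. Nothing is therefore read from the number of matching windows beside the shares of all promoters.

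With maltonis, 3 inflammatory ligands (CCL5, CCL3 and CXCL10) were lower and the receptors CXCR4 and CCR1 were higher, while CCR2 was lower. Of the 10 genes, 8 passed the filter on low counts and entered the fit over 13209 genes, and CXCL11 and CXCL16 did not. At a false discovery rate (FDR) under 0.01 in edgeR’s quasi-likelihood test, 2 of these 8 were called higher, where the share over all genes was 31.9%, and 4 were called lower, where the share was 32.1%. The libraries of the groups did not overlap for 7 of the 8, as was so for 76.6% of all genes tested. The median log2 fold change was −0.82 for the 8 genes and 0.01 for all genes tested. Since the genes were chosen on these values, nothing is read from these counts.

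CCL5 (RANTES), an attractant of T cells and monocytes, was the most abundant ligand. It had 291, 280 and 270 CPM without treatment and 81.2, 76.6 and 82.6 CPM with maltonis, in replicates 1, 2 and 3. All maltonis libraries lay well below all libraries without treatment, and replicates within a group differed little. The log2 fold change was −1.81 ± 0.0602 (SE, n = 3 per group), a 3.50-fold lower level.

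CCL3 (MIP-1α), a macrophage product that acts on CCR1, differed more than any other of the 10 genes. It had 16.99, 14.6 and 13.4 CPM without treatment and 1.08, 1.10 and 0.816 CPM with maltonis, with 319, 528 and 444 counts against 21, 37 and 23. The groups stood far apart, and each maltonis library was close to 1 CPM. The log2 fold change was −3.89 ± 0.162, a 14.9-fold lower level. CCL3 has near-identical copies (CCL3L1 and CCL3L3), and reads could have been split among them in counting.

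CXCL10 (IP-10) had 2.08, 3.04 and 2.20 CPM without treatment and 0.258, 0.119 and 0.426 CPM with maltonis. The underlying counts were 39, 110 and 73 without treatment and 5, 4 and 12 with maltonis, so that every library without treatment exceeded every maltonis library although the maltonis values rested on few reads. The gene passed the filter on low counts through its level without treatment. Its log2 fold change was −3.23 ± 0.355, a 9.40-fold lower level, and −3.85 without maltonis replicate 3, the maltonis library with most counts of the gene. CXCL10 carries the interferon and κB letters printed above.

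CXCL11 (I-TAC), the neighbour of CXCL10 with the same receptor, had 2, 4 and 6 counts without treatment and 4, 6 and 2 with maltonis. The groups overlapped, and the summed counts were 12 in each group, a depth-adjusted ratio of 1.09 (exact 95% interval 0.447 to 2.65). A change of CXCL11 like that of CXCL10 lies outside this interval of counting error.

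CCL2 (MCP-1), the monocyte attractant that acts on CCR2, had 1.17, 1.21 and 1.45 CPM without treatment and 2.43, 1.46 and 1.53 CPM with maltonis. The maltonis libraries were only just above the others except replicate 1, which stood clear. The log2 fold change was 0.44 ± 0.234, not past the threshold, and 0.19 without maltonis replicate 1.

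CXCL2 (MIP-2α), a neutrophil attractant that acts on CXCR2, had 5, 15 and 18 counts without treatment and 4, 11 and 4 with maltonis. Its groups overlapped, and the log2 fold change of −0.86 ± 0.417 did not pass the threshold. The summed counts gave a ratio of 0.544 (exact 95% interval 0.296 to 0.967), which leaves the spread between libraries aside. Reads of CXCL2 could have been shared with the close paralogs CXCL1 and CXCL3.

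CXCL16, a membrane-bound ligand that is shed to act on CXCR6, had 8, 10 and 5 counts without treatment and 8, 9 and 4 with maltonis. The groups overlapped throughout, with a ratio of summed counts of 0.993 (exact 95% interval 0.523 to 1.88). A difference under about the width of this interval was not detectable at this depth.

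**Figure D1:**
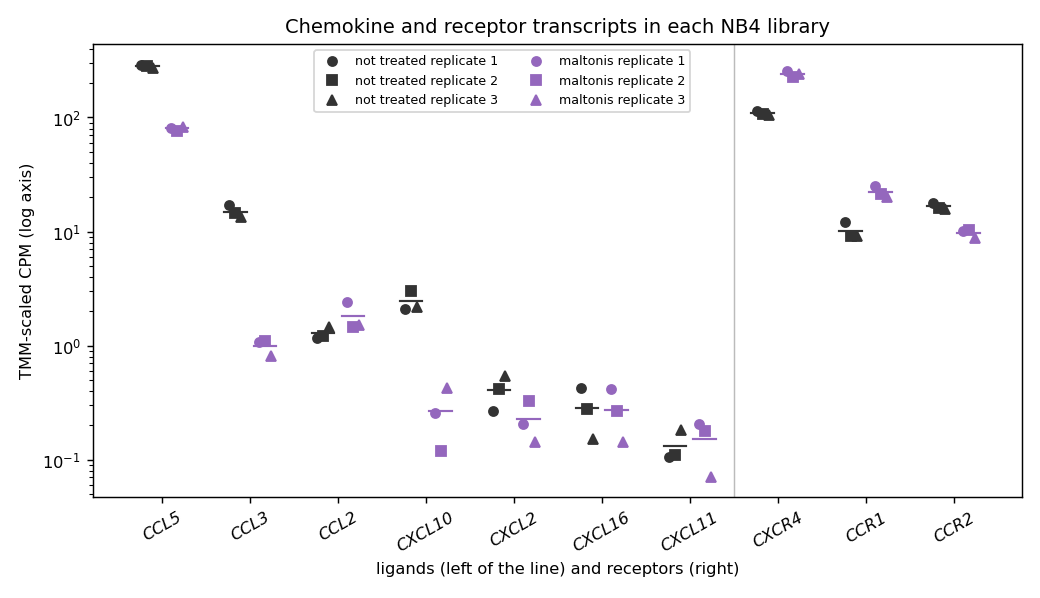
TMM-scaled CPM (log axis) of the 10 chemokine and receptor genes in each of the 6 NB4 libraries. Marker shape gives the replicate, colour the group, and horizontal lines the group means. CCL5, CCL3 and CXCL10 sit lower in all maltonis libraries and CXCR4 and CCR1 higher, while CXCL2, CXCL16 and CXCL11 overlap at under 1 CPM.

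Among the receptors, CXCR4 had 115, 107 and 105 CPM without treatment and 258, 228 and 239 CPM with maltonis. The groups were far apart, and the log2 fold change was 1.15 ± 0.0675, a 2.22-fold higher level. CXCL12, the ligand of CXCR4, had no count in any library but maltonis replicate 1, which had 3 and also held most counts of the fibroblast collagen genes.

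CCR1, a receptor of CCL3 and CCL5 on monocytes and neutrophils, had 12.2, 9.22 and 9.08 CPM without treatment and 25.2, 21.1 and 20.02 CPM with maltonis. Replicate 1 was highest in each group, and the groups did not overlap. The log2 fold change was 1.13 ± 0.138, a 2.19-fold higher level.

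CCR2, the receptor of CCL2, had 17.95, 16.1 and 15.8 CPM without treatment and 10.1, 10.4 and 8.70 CPM with maltonis. All maltonis libraries lay below the others. The log2 fold change was −0.77 ± 0.102, a 1.70-fold lower level, opposite in sign to CCR1. CCR2 belongs to a family with similar sequences, and reads of shared sequence could have been split in counting.

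Replicate 1 of each group carries a different code in the deposited names from replicates 2 and 3, and the meaning of the code is not stated. Within the first code (1 library per group) and the second (2 per group), the log2 differences were −3.01 and −3.26 for CXCL10, −3.97 and −3.86 for CCL3, −1.84 and −1.79 for CCL5, 1.16 and 1.14 for CXCR4, 1.05 and 1.17 for CCR1, and −0.83 and −0.74 for CCR2. These 6 genes differed in the same direction within both codes. For CCL2 the differences were 1.05 and 0.17, so that its value came mostly from replicate 1.

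Levels were compared between genes per length, as RPKM, reads scaled by exon length and library size. Without treatment the order was CCL5 (185 RPKM), CXCR4 (48.9), CCL3 (10.0), CCR2 (4.45), CCR1 (3.72), CXCL10 (2.07), CCL2 (0.643), CXCL2 (0.272), CXCL16 (0.102) and CXCL11 (0.0695). Neighbours in this order overlapped between libraries for CCR2 with CCR1 and for CXCL16 with CXCL11. With maltonis the order was CXCR4 (109 RPKM), CCL5 (53.0), CCR1 (8.10), CCR2 (2.60), CCL2 (0.909), CCL3 (0.670), CXCL10 (0.228), CXCL2 (0.150), CXCL16 (0.0983) and CXCL11 (0.0798). CCL2 and CCL3 overlapped between libraries, as did each neighbouring pair from CXCL10 down to CXCL11. CXCR4 and CCL5 thus exchanged the first place, and CCL3 went from the third place to the level of CCL2.

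Summed over all 48 chemokine ligands in the tables, the level was 358 ± 13.3 CPM (SD, n = 3) without treatment and 111 ± 4.45 CPM with maltonis. CCL5 made up 78.3% ± 0.0770 of that sum without treatment and 72.5% ± 1.24 with maltonis. CXCL8 (interleukin 8) made up 14.2% ± 0.204 and 16.5% ± 1.74, and the share of CCL3 was 4.18% ± 0.357 against 0.910% ± 0.177. CCL5 and CXCL8 were thus the largest parts of the ligand sum in both groups. CCL20, with means of 5.36 CPM without treatment and 6.25 CPM with maltonis, stood above CCL3 (mean 1.00 CPM) with maltonis. The 23 receptors summed to 144 ± 8.96 CPM without treatment and 285 ± 17.1 CPM with maltonis. CXCR4 was 75.9% ± 0.945 and then 84.9% ± 0.663 of the receptor sum, CCR1 7.05% ± 0.767 and 7.76% ± 0.568, and CCR2 11.6% ± 0.102 and 3.42% ± 0.373.

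**Figure D2:**
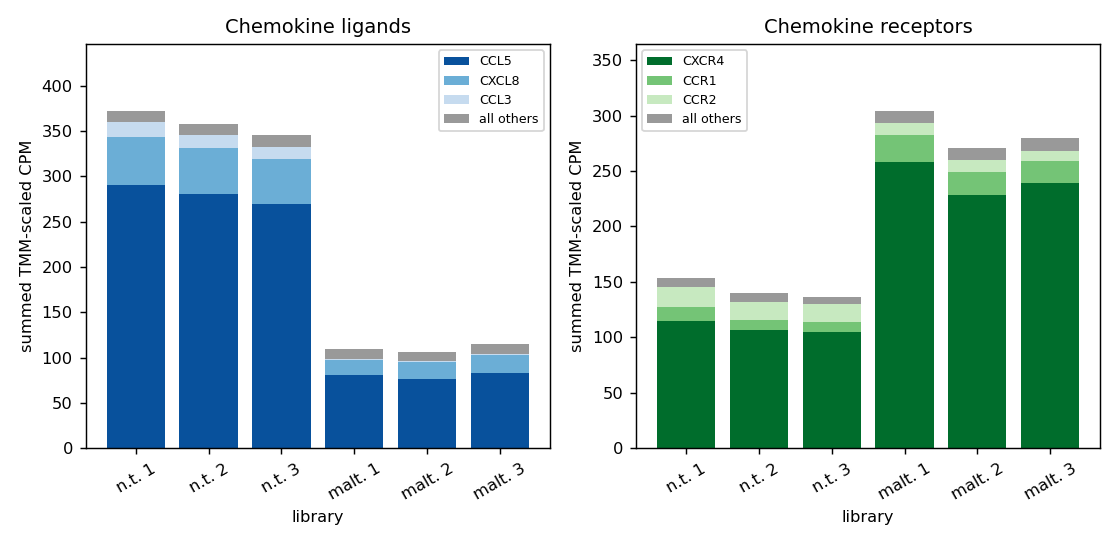
Summed TMM-scaled CPM of all chemokine ligands (left) and receptors (right) in each library (n.t., not treated, malt., maltonis). Bars are stacked by CCL5, CXCL8 and CCL3 or by CXCR4, CCR1 and CCR2, and all other genes, CCL20 among them, are in grey. Ligand sums lay between 345 and 372 CPM without treatment and between 107 and 115 CPM with maltonis, and receptor sums between 137 and 154 and between 271 and 304 CPM, with CCL5 and CXCR4 as the largest parts.

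Most of the 41 other ligands were barely measured in NB4 cells. No read was counted for 16 of them, 31 stayed under 3 counts in every library, and 4 could be tested. By edgeR’s quasi-likelihood test CCL4 and CXCL8 were called lower, where the share over all genes was 32.1%, and CCL20 and CCL23 did not pass the threshold, with a median log2 fold change of −0.62. CXCL8, a neutrophil attractant whose promoter is printed above, had 52.1, 50.6 and 49.7 CPM without treatment and 16.0, 18.3 and 20.6 CPM with maltonis, in groups that did not overlap. Its log2 fold change was −1.47 ± 0.0948 (edgeR adjusted p = 1.65e-06). Groups that did not overlap were a condition for naming called genes among other ligands, other receptors, signalling, processing and regulator genes. The groups did not overlap for 76.6% of all genes tested. CCL4 (MIP-1β), the gene next to CCL3 with an overlapping set of receptors, had 21, 25 and 41 counts without treatment and 2, 1 and 0 with maltonis. The 87 against 3 summed counts of CCL4 gave a ratio of 0.0375 (exact 95% interval 0.00759 to 0.113), and the gene passed the filter on low counts only through the libraries without treatment. The fitted log2 fold change of CCL4 was −4.59, and −5.64 without maltonis replicate 1, values that depend on the prior count. CCL4 has near-identical copies too (CCL4L1 and CCL4L2).

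CXCL9, the other interferon-inducible ligand of CXCR3, had 1, 6 and 7 counts without treatment and 4, 18 and 19 with maltonis and was too low to be tested. Its groups overlapped, and the ratio of the summed counts, 14 against 41, was 3.19 (exact 95% interval 1.70 to 6.33). Of the CXCR3 ligands, which lie side by side, CXCL9 thus had a ratio above 1, the interval of CXCL11 spanned 1, and CXCL10 was lower. Leaving out maltonis replicate 1 brought CXCL9 into the test and raised the number of other ligands called higher by edgeR from 0 to 1. With all libraries the number was also 0 at an unadjusted p under 0.05 and by DESeq2. The library left out was the lowest maltonis library for CXCL9. The gene then passed the filter on low counts only through maltonis replicates 2 and 3, so nothing is read from this added call.

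Of 20 other chemokine receptors, 9 could be tested, where 1 rose, 2 fell and 6 did not pass the threshold, beside 31.9% higher and 32.1% lower over all genes, with a median log2 fold change of −0.06. Of these 9, 4 had passed the filter on low counts through the libraries of 1 group. CCRL2, an atypical receptor that binds chemerin and lies near CCR2, had 1.33, 0.773 and 0.513 CPM without treatment and 3.92, 4.89 and 5.22 CPM with maltonis. CCRL2 rose in all maltonis libraries relative to the others, by 2.54 ± 0.267 on the log2 scale (edgeR adjusted p = 3.23e-05). CXCR3 had 21, 38 and 33 counts without treatment and 1, 12 and 9 with maltonis. This receptor of CXCL9, CXCL10 and CXCL11 had a log2 fold change of −1.94 ± 0.372, with its lowest library in maltonis replicate 1, and passed the filter on low counts mainly through the libraries without treatment. CXCR6, the receptor of CXCL16, had 25, 55 and 40 counts against 10, 22 and 14 and also fell, with a log2 fold change of −1.26 ± 0.220 (edgeR adjusted p = 0.000747).

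**Figure D3:**
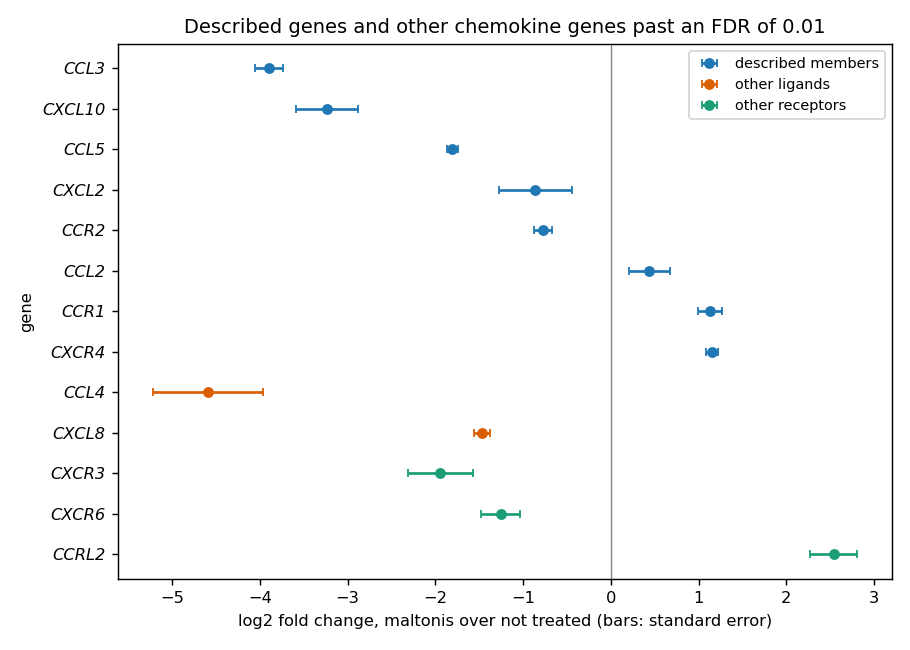
Log2 fold changes of maltonis over not treated for the described genes that were tested (8 of 10) and for the other chemokine ligands and receptors past an FDR of 0.01, with standard errors as bars and a colour for each set. CCL4, CCL3 and CXCL10 lie farthest to the left, between −4.59 and −3.23, and CCRL2 farthest to the right at 2.54.

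Chemokine receptors signal through G protein subunits, phospholipase C, phosphoinositide 3-kinase, Rac and Src-family kinases, and are switched off by RGS proteins, GRKs and arrestins. Of 35 listed genes of this pathway 33 were tested, of which 22 fell, 5 rose and 6 did not pass the threshold. The shares called over all genes were 32.1% lower and 31.9% higher, and the median of the list was −0.53 against 0.01 for all genes. PREX1, a Rac exchange factor activated by Gβγ, had 216, 220 and 207 CPM against 98.6, 96.5 and 99.9 CPM, a log2 fold change of −1.13 ± 0.0540 (edgeR adjusted p = 3.30e-07). RAC2, the hematopoietic Rac GTPase of migration, had a log2 fold change of −0.98 ± 0.167 (edgeR adjusted p = 0.000648), and GNG2, a Gγ subunit, one of −0.91 ± 0.103 (edgeR adjusted p = 5.02e-05). The groups did not overlap for any of these genes, which was a condition for naming them. RGS16, which speeds the shut-off of Gα, fell by 1.11 on the log2 scale (edgeR adjusted p = 8.01e-07).

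Among the genes that rose, GNB2, a Gβ subunit, had 242, 285 and 272 CPM without treatment and 436, 445 and 430 CPM with maltonis, in groups that did not overlap. GNB2 rose by 0.71 ± 0.0697 (edgeR adjusted p = 2.05e-05) and PLCB2, the Gβγ-activated phospholipase, by 0.64 ± 0.0917 on the log2 scale (edgeR adjusted p = 0.000237). FGR, a myeloid Src-family kinase, had a log2 fold change of 0.77 ± 0.208 (edgeR adjusted p = 0.00879) and lost its call when any library but not treated replicate 1 was left out, with adjusted p of 0.0157 to 0.0372. The number of genes called higher in this list was 3 instead of 5 without not treated replicate 2, not treated replicate 3, maltonis replicate 1 or maltonis replicate 2.

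Proteases trim or shed chemokines outside the cell and so set their activity, and the granule proteoglycan serglycin (SRGN) binds them. Of 9 listed genes, 8 proteases and SRGN, 7 were tested, where 3 rose, 1 fell and 3 did not pass the threshold, beside 31.9% higher and 32.1% lower over all genes, and 2 fell without not treated replicate 1. Elastase (ELANE) went from 3, 6 and 2 counts to 406, 565 and 409, with a fitted log2 fold change of 7.07 ± 0.281, and passed the filter on low counts only through the maltonis libraries. Cathepsin G (CTSG), a granule protease like elastase, went from 113, 112 and 103 CPM to 576, 539 and 544 CPM, a log2 fold change of 2.34 ± 0.0632 (edgeR adjusted p = 2.77e-08). In both genes the groups stood far apart. MMP9, a gelatinase that cleaves CXCL8, had a log2 fold change of −1.32 ± 0.0704 (edgeR adjusted p = 5.77e-07). ADAM17, a sheddase of membrane proteins, rose by 0.30 ± 0.0572 on the log2 scale (edgeR adjusted p = 0.00140), a call that was lost without maltonis replicate 3 (0.24, adjusted p = 0.0135).

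The interferon, NF-κB and AP-1 inputs of the chemokine promoters were measured through 39 listed genes. Of the 38 tested, 19 rose, 10 fell and 9 did not pass the threshold, beside 31.9% higher and 32.1% lower over all genes, and the median was 0.31. On the interferon side IRF9, the DNA-binding subunit of ISGF3, went from 7.14, 5.99 and 6.36 CPM to 49.0, 45.5 and 49.4 CPM, a log2 fold change of 2.90 ± 0.0889, and IRF7 was higher by 2.50 ± 0.108. No p-value is given for these interferon genes, whose rise was known when CXCL10 was chosen. IFNB1 (interferon β) had 3 counts in each library without treatment and 19, 17 and 14 with maltonis, and it passed the filter on low counts only through the maltonis libraries. Its fitted log2 fold change was 2.56 ± 0.478. IFNG, the interferon for which CXCL10 was named, had no count in any library, and IFNGR2, a chain of its receptor, fell by 1.08 on the log2 scale (edgeR adjusted p = 1.77e-06).

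On the NF-κB and AP-1 side, TNF, an inducer and a target of NF-κB, had 117, 119 and 111 CPM without treatment and 22.2, 17.1 and 16.9 CPM with maltonis. TNF was lower in every maltonis library, with a log2 fold change of −2.63 ± 0.107 (edgeR adjusted p = 1.55e-07). JUN, an AP-1 subunit, went from 53.7, 53.0 and 46.8 CPM to 14.5, 10.7 and 12.3 CPM, a log2 fold change of −2.04 ± 0.115 (edgeR adjusted p = 7.60e-07). TNFAIP3 (A20), an NF-κB target that restrains the pathway, fell by 1.38 on the log2 scale (edgeR adjusted p = 2.48e-06). The NF-κB subunits REL, NFKB2, RELA and RELB were called higher, with log2 fold changes of 1.08, 0.94, 0.51 and 0.38. Their edgeR adjusted p were 7.55e-06, 6.11e-05, 0.00166 and 0.00996, the last close to the threshold of 0.01. NFKB1, also a subunit, was called lower, at −0.29, with an edgeR adjusted p of 0.00813 that was close to the threshold too. FOSB, another AP-1 subunit, moved opposite to JUN, by 2.22 ± 0.173 (edgeR adjusted p = 5.08e-06). The list therefore held genes that moved both ways in each branch.

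**Figure D4:**
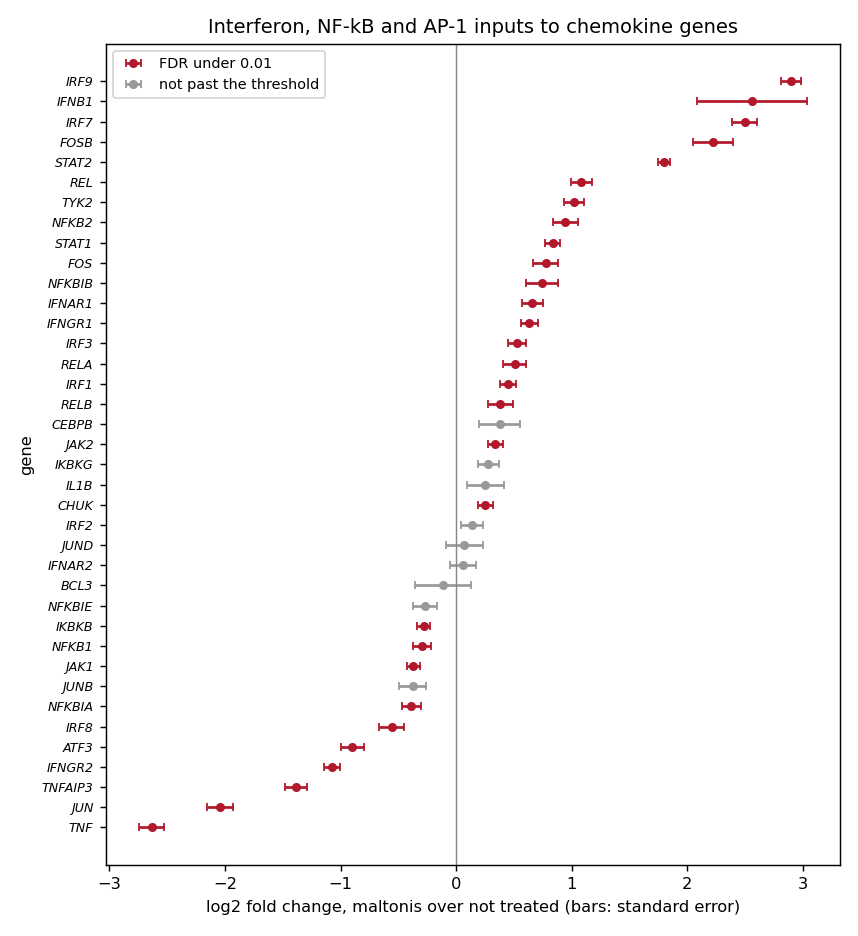
Log2 fold changes of maltonis over not treated for the 38 tested interferon, NF-κB and AP-1 genes, with standard errors as bars. Red points passed an FDR of 0.01. IRF9 (2.90), IFNB1 (2.56) and IRF7 (2.50) are at the top, and JUN (−2.04) and TNF (−2.63) at the bottom.

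As a comparison for CXCL10, 10 interferon-stimulated genes were listed, of which IDO1 had no count and 9 were tested. Of these, 8 were higher and WARS was lower, beside 31.9% higher and 32.1% lower over all genes, with a median log2 fold change of 3.62. Among the 9, 3 (MX1, RSAD2 and GBP1) had passed the filter on low counts through the maltonis libraries. The rise of interferon genes was part of how CXCL10 was chosen, so no p-value is given. IFIT1, an antiviral RNA-binding protein, went from 6.92, 6.24 and 6.09 CPM to 87.6, 94.8 and 95.5 CPM (log2 fold change 3.86 ± 0.0824). WARS, the tryptophanyl-tRNA synthetase induced mainly by interferon γ, had 136, 138 and 135 CPM without treatment and 54.4, 49.9 and 52.7 CPM with maltonis, a log2 fold change of −1.39 ± 0.0585. CXCL10 differed in the direction of WARS and opposite to the other 8.

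Genes within 100 kb of the 10 members were taken from the gene order of GRCh38, since the reads were aligned to hg19, and no coordinates were carried over. Of 40 such genes, 17 were tested, of which 5 were called higher and 6 lower, beside 31.9% and 32.1% of all genes, with a median log2 fold change of 0.23. Around CXCL10 and CXCL11, NAAA, an acid amidase, fell from 18.3 to 2.38 CPM, a log2 fold change of −2.95 ± 0.124 (edgeR adjusted p = 1.76e-07). ART3, an ADP-ribosyltransferase family gene whose span overlaps CXCL10 and CXCL11, fell as well, with a log2 fold change of −1.30 ± 0.147 (edgeR adjusted p = 5.16e-05). Whether counting used the strand is not given in the sources used here, so reads of overlapping genes may not be told apart. SDAD1 in the same interval had a log2 fold change of −0.38 (edgeR adjusted p = 0.000485) and NUP54 one of 0.26 (edgeR adjusted p = 0.00366). The call of NUP54 was lost without replicate 2 or 3 of either group, with log2 fold changes of 0.21 to 0.26 and edgeR adjusted p of 0.0151 to 0.0313. Next to CCL5, RDM1 rose by 1.53 on the log2 scale (edgeR adjusted p = 1.84e-05), opposite in sign to CCL5. MED11 and ZMYND15 overlap the span of CXCL16, and MED11 rose by 0.91 (edgeR adjusted p = 9.69e-05).

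The genes whose pattern over the 6 libraries was nearest to that of CXCL10 were BCL11B, MGLL, SLC27A6, LOC100507600 and TFEB. Likeness was the Euclidean distance of log2(CPM + 0.1), centred on each gene’s mean, and these 5 had distances of 0.450, 0.472, 0.585, 0.696 and 0.742. BCL11B, a zinc finger factor of the T cell lineage, had 6.13, 6.71 and 6.21 CPM without treatment and 1.03, 0.597 and 1.42 CPM with maltonis. As in CXCL10, maltonis replicate 2 was the lowest and maltonis replicate 3 the highest library of its group. The 5 genes were picked for this likeness, so the shared order follows from the choice. In CXCL10 that order rested on 5, 4 and 12 counts. No other chemokine or receptor was among the 5.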

How the data were processed

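RNA of 6 NB4 libraries, 3 not treated and 3 exposed to 10 µM maltonis for 24 h, was described through 1 table of counts per library. The authors deposited whole-number read counts per gene symbol without normalization, and every row named a gene. The submitters' processing notes name TopHat, Bowtie2, HTSeq and hg19, while versions, annotation and strand setting are not given in the sources used here.

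Counts were tested in R 4.3.3 with edgeR 4.0.16 (TMM scaling, filterByExpr, quasi-likelihood test over all 6 libraries without covariates), with Benjamini-Hochberg adjustment over 13209 genes and an FDR threshold of 0.01. Standard errors are the unshrunk log2 coefficient divided by the square root of F. All adjusted p-values come from this test unless another is named. The scripts were tested on simulated data. Libraries of a group differed by more than sampling noise (chi-square per degree of freedom 4.15 to 33.1). Depth lay between 18492154 and 38205483 counts. Intervals of summed counts are exact 95% Poisson intervals of the ratio, adjusted for effective library size. RPKM used the summed exon length of GENCODE version 29, and promoters came from RefSeq (GRCh38.p14). Protein sequences were not used here.

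The 10 genes and all lists were chosen with earlier results of these data known. From each list the 4 genes with the largest rise and fall were named among those past the threshold with groups that did not overlap. The NF-κB subunits were named in addition, to show both directions. Some genes are not reported here. Motif forms were settled after promoters had been seen. Alternatives were DESeq2 size factors, total counts and upper-quartile scaling, the DESeq2 1.42.0 Wald test, no filter, a replicate block, the code in the deposited names as covariate, other thresholds and each library left out.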

Additional observations from a re-analysis of the deposited data

How the results depend on the processing

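No called value or count reversed its direction under the alternatives run. CXCL11 and CXCL16, which were not tested and lay near 0 on the log2 scale (0.12 and −0.01), changed sign, to between −0.15 and −0.06 for CXCL11 under 4 alternatives that left libraries out and to between 0.05 and 0.30 for CXCL16 under 5, among them scaling by total counts and by the upper quartile. With a fold change beyond 2.5 in either direction added to the FDR of 0.01, the 10 genes had 0 called higher and 3 lower (9.96% and 10.4% of all genes tested), other receptors 1 lower, signalling genes 1 higher and 0 lower, processing genes 0 lower, and regulators 5 higher and 3 lower. These counts follow from the fold limit, since FDR 0.01 alone gave the counts in the report. An FDR of 0.05 gave 3 other receptors higher and 2 processing genes lower. Processing genes lower numbered 2 under the DESeq2 Wald test, without the filter on low counts and with the code in the deposited names as covariate, where the cause was not tested.

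Leaving out 1 library at a time gave 2 to 2 of the 10 genes higher and 4 to 4 lower, 0 to 1 other ligands higher (0 also at an unadjusted p under 0.05 and by DESeq2 with all libraries) and 2 to 2 lower, 1 to 1 other receptors higher and 2 to 2 lower, 3 to 5 signalling genes higher and 19 to 22 lower, 2 to 4 processing genes higher and 1 to 2 lower, and 16 to 19 regulators higher and 8 to 11 lower. CXCL2 was at −1.34 without maltonis replicate 2.

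With a replicate block, processing genes lower numbered 2 and no other count of the lists moved by over 1.5 times. CXCL10 was at −3.24, CCL3 at −3.88 and CCL2 at 0.41 with the block. Deviations of same-numbered libraries correlated at 0.301, 0.085 and 0.161, and not every library correlated best with its own number, so that the number by itself does not pair the libraries. By the code in the deposited names, the correlations were 0.301 between the libraries of the first code and 0.085 to 0.161 among those of the second. Across codes they were −0.232 to −0.162. Deviations were taken from the mean of each group, so these correlations depend on each other and are not separate observations. Replicate 1 also had the fewest counts of each group (19385279 without treatment and 18492154 with maltonis), so the code cannot be told apart from depth.

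Scaling by total counts moved the median log2 fold change of all genes from 0.01 to 0.13 and the share of calls that were higher from 49.8% to 57.3%. Relative to that shift, CCL5 at −1.69 and CXCR4 at 1.27 moved with all genes. Depth limits CXCL2, CXCL11, CXCL16 and most other ligands, for which single counts decide the value. With RefSeq-linked exon lengths, an alternative chosen after seeing the data, the order of levels was the same, while CXCL10 then overlapped CCL2 without treatment, and with maltonis CCR2 overlapped CCL2 and CCL2 no longer overlapped CCL3.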
